A study of Rattus norvegicus with 69 samples.

Results

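At the end of one turn of the rat seminiferous epithelium cycle, tubules at stage I were compared with tubules at stages XIII-XIV, the stages just before it. The comparison used 10 of the 69 samples of the series, those titled as stage I or as stages XIII-XIV, with 5 samples a side, and covered all 31042 probe sets that were not array controls. RNA was measured on Affymetrix rat arrays, with 1 array per sample. Both groups came from untreated Sprague Dawley rats aged 55 to 60 days, and no genetic change was listed for any group. Each tubule sample pooled tubules from 2 rats, dissected by light transmitted through the tubule wall, with 25 segments per rat. Isolated cells of the same series served as a separate readout. They were 4 samples of round spermatids, 4 of pachytene spermatocytes and 4 of Sertoli cells, all from rats aged 55 to 60 days. A further 3 held spermatogonia with early spermatocytes from rats aged 18 to 20 days.

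A cross-section of a seminiferous tubule holds several generations of germ cells at once, layered around the Sertoli cells that support them, and each stage is a fixed set of these generations. In the rat the meiotic divisions take place at the close of the cycle, so tubules of stages XIII-XIV hold spermatocytes in late prophase or in division, and tubules of stage I hold the round spermatids formed by those divisions. Both also hold an older generation of spermatids that is packing its chromatin and building its flagellum, as well as younger spermatocytes and spermatogonia. In such whole tubules, fewer cells of a type and less RNA per cell cannot be told apart.

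The 10 arrays were alike in level and RNA quality. Median signal was 39.0 to 48.5 and mean within-group correlation 0.910 to 0.941. The 3' to 5' signal ratio of the GAPDH control averaged 1.22 ± 0.143 at stage I and 1.10 ± 0.151 at stages XIII-XIV (SD, n = 5 each; exact permutation test over the 252 splits, two-sided, p = 0.23), and that of beta-actin 1.94 ± 0.195 and 1.84 ± 0.137 (p = 0.381). The 5 samples of a stage were listed as independent, but their deviations from the stage mean, over probe sets above the median of the table, were not evenly related. Arrays 2 and 3 of a stage deviated more alike than any pair other than arrays 4 and 5 in 8 of 10 stages, and arrays 4 and 5 more than any pair other than arrays 2 and 3 in 9 of 10. At stage I the correlation was -0.08 between arrays 4 and 5 and -0.36 between arrays 2 and 3. At stages XIII-XIV it was -0.03 between arrays 4 and 5 and 0.05 between arrays 2 and 3, where independent arrays give about -0.25. The sources used here do not say whether such arrays shared rats or a day of work. Calls were therefore followed in these arrays alone for 37 probe sets, those of the largest changes and of genes in the lists below. Where such a call was lost, that value is given. Other named genes, among them Gtse1, Sel1l, Acsl4, Ube2a and Slc25a14, were not followed. For them the absence of such a value does not mean that the call held.

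Of the 31042 probe sets, 318 (1.02%) differed by at least 2-fold at a Benjamini-Hochberg adjusted p under 0.05 in limma, and these are called changed below. Stage I was higher for 202 of them (0.651%) and lower for 116 (0.374%). At any fold, 1380 (4.45%) passed the test, 725 higher (2.34%) and 655 lower (2.11%). The changes were moderate: the median was 2.54-fold among the higher and 2.39-fold among the lower probe sets, and 16 of the 202 and 3 of the 116 changed at least 4-fold. All folds are on the scale of log2(signal + 5.11), which understates changes of dim probe sets. The median change of all probe sets was 0.02 on the log2 scale. Means are given ± SD over the 5 arrays of a stage. The 5 arrays of each stage did not overlap for 148 of the 202 and 81 of the 116, against 4.41% of all probe sets. The calls rest on the same arrays, so a larger share among them follows largely from the calling. With arrays 2 and 3, and arrays 4 and 5, of each stage averaged, 207 probe sets were called, 134 higher and 73 lower, and 202 of these were among the 318.

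**Figure D1:**
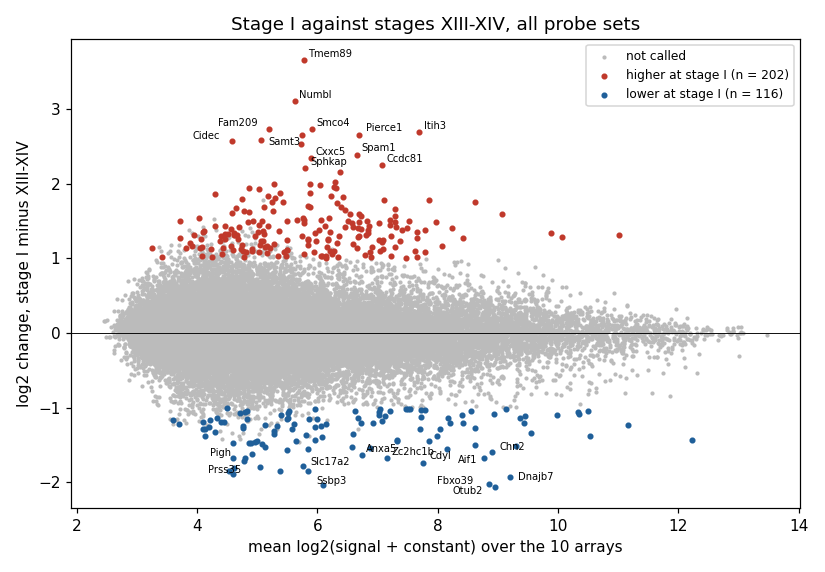
Log2 change, stage I minus stages XIII-XIV, against the mean log2(signal + constant) over the 10 arrays, with each point a probe set. The 202 probe sets called higher lie at 1 or above and the 116 called lower at -1 or below, and the 12 rising and 12 falling genes described in the text are labelled.

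The 12 rising genes with the largest changes were all brightest in isolated round spermatids among the isolated cells. They were selected to have no overlap between the arrays of the stages. Tmem89, a membrane protein gene on chromosome 8, had signals of 160, 105, 157, 323 and 281 at stage I, against 8.09, 12.1, 9.67, 9.58 and 12.8 at stages XIII-XIV. The 2 sets of arrays lie far apart, and the change of 12.6-fold (log2 change 3.65, SE 0.21, adjusted p = 4.31e-17) was the largest of all probe sets. Spam1, the hyaluronidase of the sperm surface, had 243, 143, 152, 324 and 337 at stage I, against 78.3, 33.6, 16.5, 42.5 and 43.8 at stages XIII-XIV, a 5.24-fold rise (adjusted p = 1.19e-07) with no overlap. Both genes went on to higher means at stage VI, 1246 for Tmem89 and 2713 for Spam1, so their stage I level was an early part of a longer rise.

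Fam209, which in mice encodes an acrosomal membrane protein, had 68.6, 74.0, 32.0, 162 and 202 at stage I, against 2.83, 9.37, 24.6, 10.8 and 5.49 at stages XIII-XIV, a 6.64-fold rise (adjusted p = 2.76e-08). The lowest stage I array lay only a little above the highest of stages XIII-XIV, and in arrays 2 and 3 alone the log2 change was 1.39 (adjusted p = 0.0614). Pierce1, whose protein lies inside the microtubules of motile cilia, had 234, 235, 224, 320 and 274 at stage I, against 80.0, 18.6, 9.36, 68.6 and 51.9 at stages XIII-XIV, a 6.28-fold rise (adjusted p = 1.12e-07). Every stage I array of Pierce1 exceeded 200 and no other did.

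Cidec, a lipid droplet protein gene, behaved differently from these. Its signals were 68.4, 43.7, 52.3, 63.3 and 43.3 at stage I, against 8.06, 3.47, 3.53, 7.60 and 2.27 at stages XIII-XIV, a 5.95-fold rise (adjusted p = 5.46e-10). Its mean of 54.2 ± 11.4 at stage I (SD, n = 5) was also its highest of the 10 stages, and the isolated cells averaged 73.3 for round spermatids, 3.24 for pachytene spermatocytes and 1.25 for Sertoli cells. Numbl, an adaptor of endocytosis and Notch signalling, averaged 147 ± 51.6 at stage I and 15.8 ± 18.3 at stages XIII-XIV (SD, n = 5 each), 8.64-fold higher (adjusted p = 3.99e-09). Its highest array of stages XIII-XIV, at 48.2, stood far above the other four.

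The remaining rising genes named by size of change rose 4.61-fold to 6.64-fold, with no overlap between the stages, as their selection required. Itih3, a hyaluronan-binding chain of a protease inhibitor, was the brightest, at 529 ± 111 at stage I and 84.9 ± 41.3 at stages XIII-XIV. Cxxc5, a zinc finger protein that binds unmethylated CpG, averaged 131 ± 25.8 at stage I and 24.3 ± 15.3 at stages XIII-XIV. Smco4, Ccdc81, Sphkap and the X-linked Samt3 completed the list, with means of 154, 305, 116 and 79.2 at stage I, against 19.4, 61.0, 25.3 and 11.2 at stages XIII-XIV. Of the genes measured by several probe sets, Sphkap passed with 1 of 2, and Pierce1 and Cxxc5 passed with both of theirs.

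**Figure D2:**
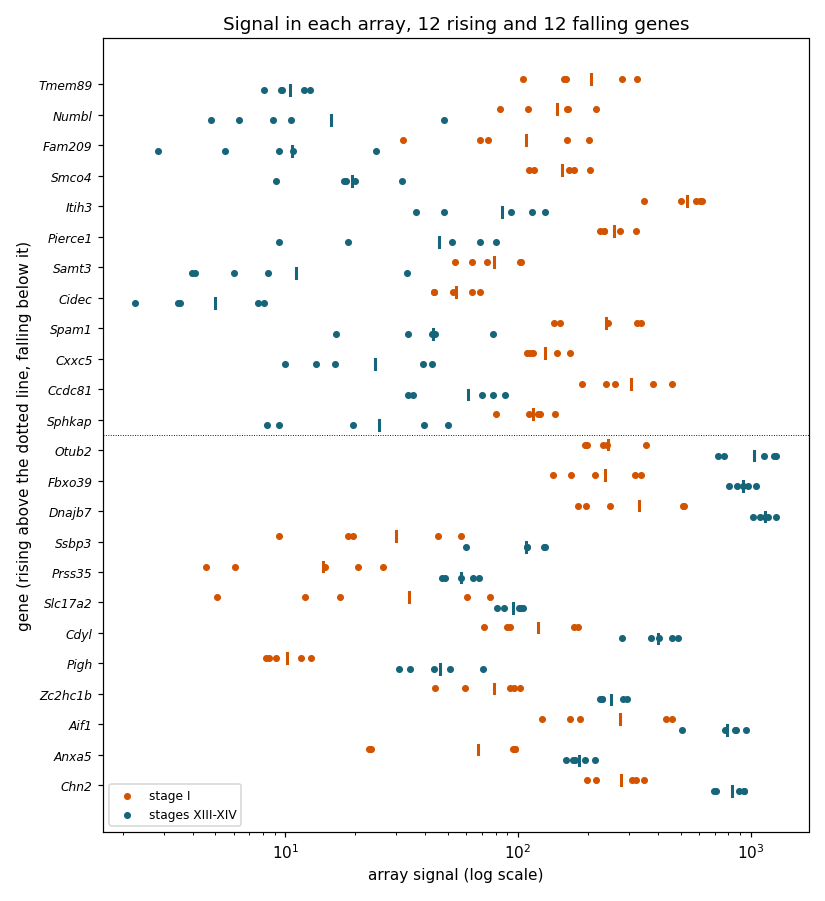
Array signal on a log scale for the 12 rising and 12 falling genes, with each point an array, 5 of stage I and 5 of stages XIII-XIV, and short bars at the group means. The groups do not overlap for any of these genes, as their selection required. Among the falling genes, Slc17a2 at stage I ranges between 5.08 and 75.8.

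The promoters of the called genes are shown for the gene with the largest rise and for the 3 rising genes whose promoter holds the palindrome TGACGTCA, the cyclic AMP response element that the spermatid activator CREM binds. The windows run from 250 bases before to 50 after the start site, are read 5′ to 3′ on the gene's strand, and come from RefSeq, build GRCr8. Capitals mark the element. Their positions are chr8:118449620-118449919 on the plus strand for Tmem89, chr9:34592473-34592772 on the plus strand for Lmbrd1, chr3:164341887-164342186 on the plus strand for Tp53inp2 and chr3:36116532-36116831 on the minus strand for Slc25a25.
Tmem89: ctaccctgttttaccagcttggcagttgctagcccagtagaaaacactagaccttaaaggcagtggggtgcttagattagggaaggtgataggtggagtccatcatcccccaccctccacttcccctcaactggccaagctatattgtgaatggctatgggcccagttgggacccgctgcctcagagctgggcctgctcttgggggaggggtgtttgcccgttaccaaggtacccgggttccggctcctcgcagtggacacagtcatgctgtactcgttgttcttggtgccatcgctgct
Lmbrd1: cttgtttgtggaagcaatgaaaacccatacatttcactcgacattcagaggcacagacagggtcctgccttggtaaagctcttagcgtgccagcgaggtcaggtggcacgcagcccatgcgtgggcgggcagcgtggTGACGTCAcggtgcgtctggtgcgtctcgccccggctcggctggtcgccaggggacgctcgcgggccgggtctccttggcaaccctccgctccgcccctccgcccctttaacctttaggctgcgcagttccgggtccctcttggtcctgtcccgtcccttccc
Tp53inp2: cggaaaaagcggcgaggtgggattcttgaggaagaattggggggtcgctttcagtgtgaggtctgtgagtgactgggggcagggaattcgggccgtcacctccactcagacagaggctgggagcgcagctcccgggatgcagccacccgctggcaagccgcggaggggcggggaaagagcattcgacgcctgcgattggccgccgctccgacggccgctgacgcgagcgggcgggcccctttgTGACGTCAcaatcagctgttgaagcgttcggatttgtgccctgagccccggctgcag
Slc25a25: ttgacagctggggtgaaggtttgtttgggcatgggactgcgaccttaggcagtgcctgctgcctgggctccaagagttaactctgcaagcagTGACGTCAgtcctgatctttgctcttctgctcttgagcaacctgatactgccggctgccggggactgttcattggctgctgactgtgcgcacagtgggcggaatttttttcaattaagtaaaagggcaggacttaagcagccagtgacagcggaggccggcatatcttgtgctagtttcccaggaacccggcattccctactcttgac
The element begins 113 bases before the start site in Lmbrd1, 7 in Tp53inp2 and 158 in Slc25a25. Tp53inp2, which encodes an autophagy regulator, averaged 232 ± 31.4 at stage I and 92.1 ± 19.4 at stages XIII-XIV (2.46-fold, adjusted p = 5.65e-10). Lmbrd1, which encodes a lysosomal protein of cobalamin transport, averaged 201 ± 27.7 at stage I and 84.5 ± 16.8 at stages XIII-XIV (2.32-fold, adjusted p = 6.27e-10). Slc25a25, a mitochondrial carrier gene, stayed below the table's median of 43.7 in every array of both stages.

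The searched letters were counted over all called genes with a promoter in the table. TGACGTCA, searched on both strands, was in 3 of 129 promoters of the rising genes (2.33%), in 2 of 79 of the falling genes (2.53%) and in 335 of 11733 of all genes measured (2.86%). GTTGCC, part of the X-box that RFX factors bind, was in 21 (16.3%), 8 (10.1%) and 1453 (12.4%) of them. TTTGAA, the cell cycle homology region of mitotic genes, was in 20 (15.5%), 10 (12.7%) and 1445 (12.3%). Overlaps between matches of different motifs were not counted, and a match is only a match of letters.

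Isolated round spermatids and pachytene spermatocytes, cells from after and before the divisions, gave a readout that shares no sample with the tubules. The sample titles do not say how far these round spermatids had developed, so they need not match those of stage I. Of the 202 probe sets that rose at stage I, 163 (80.7%) were also called higher in round spermatids than in pachytene spermatocytes, where 6.67% of all probe sets were. A single one (0.495%) was called lower, where 9.21% of all were. The median log2 change of the 202 in the isolated cells was 2.34. Round spermatids were the highest of the 4 cell groups for 162 of them (80.2%, against 27.5% of all probe sets). Tmem89 averaged 740 in round spermatids and 31.8 in pachytene spermatocytes (22.1-fold, adjusted p = 1.48e-08). Smco4 averaged 305 and 23.0 in the same cells (11.4-fold, adjusted p = 5.11e-10). The GAPDH 3' to 5' ratio was 2.13 ± 0.306 in round spermatids and 1.22 ± 0.193 in pachytene spermatocytes (SD, n = 4 each), and the part of this difference in the cell readout was not tested.

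The probe sets that rose without a matching call in the isolated cells were dim. These 38 had a median of 36.9 at stage I, 14.0 at stages XIII-XIV, 26.1 in round spermatids and 19.7 in pachytene spermatocytes. Of the 38, 17 had their highest stage mean at stage I, where 9.65% of all probe sets did. Nsf, the ATPase of membrane fusion, averaged 73.5 ± 17.0 at stage I and 16.4 ± 11.9 at stages XIII-XIV (3.98-fold, adjusted p = 3.86e-05). A2m, a protease inhibitor that Sertoli cells secrete, averaged 180 ± 27.8 at stage I and 70.5 ± 24.1 at stages XIII-XIV (2.53-fold, adjusted p = 0.00355), and 481 in isolated Sertoli cells. Nxpe2 was the probe set called lower in round spermatids, at 3.94 there and 14.2 in pachytene spermatocytes. The probe sets given for Nsf and Nxpe2 were not the brightest of these genes over the tubule arrays.

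**Figure D3:**
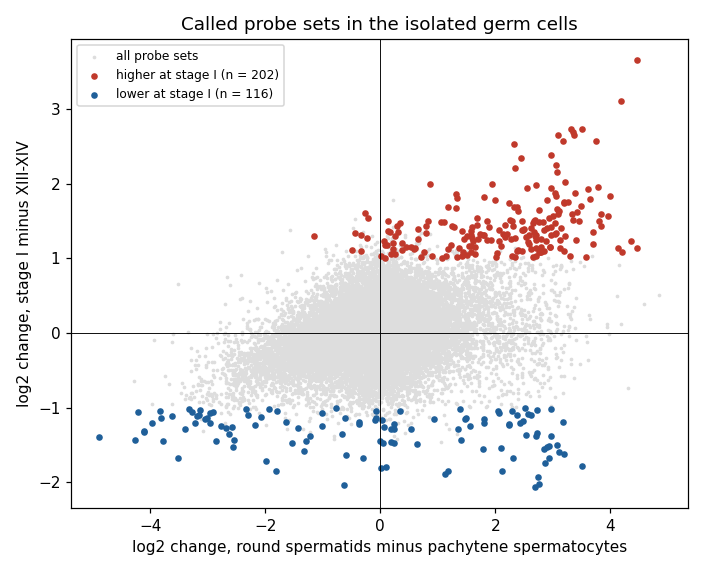
Log2 change between the stages (vertical) against log2 change between round spermatids and pachytene spermatocytes (horizontal), with each point a probe set. Most of the 202 higher at stage I lie to the right of 0, and the 116 lower at stage I split between the sides, 43 called higher and 46 called lower in round spermatids.

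Across the whole cycle, the genes that rose at stage I were at the start of their course. Their highest stage mean fell at stage I for 23 of the 202, at II-III for 52, at IV-V for 61 and at VI for 47, and at none of stages XII or XIII-XIV. Of all probe sets, 9.65% had theirs at stage I, 10.4% at II-III, 8.95% at IV-V and 9.8% at VI. The median over the 202 of the log2 stage mean, less the mean of the 10 stages, was 0.17 at stage I, 1.06 at II-III, 1.25 at IV-V and 1.03 at VI, and then declined to -1.22 at XII and -1.20 at XIII-XIV. The low level at XIII-XIV relative to stage I, and the absence of highest means there, follow from how the 202 were chosen. For the stage called IX-XI here, source names in the labels gave IX-XII, so its samples may hold stage XII tubules.

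The genes that fell at stage I were of more than a single kind. Of the 116 probe sets, 43 (37.1%) were called higher in round spermatids than in pachytene spermatocytes and 46 (39.7%) were called lower, while 27 were not called in either direction. The 43 averaged low at stage I and high in round spermatids: their median signal was 163 at stage I and 400 at stages XIII-XIV, with 702 in round spermatids and 101 in pachytene spermatocytes. Their highest stage mean lay in stages VII to VIII for 20 and at IX-XI for 22, and at stages XII to XIV for none. The 46 had medians of 38.6 at stage I and 96.8 at stages XIII-XIV, with 28.8 in round spermatids and 205 in pachytene spermatocytes. Their highest means lay at IX-XI for 22 and at stages XII to XIV for 18. Of all probe sets, 8.09% had theirs at VIIa.b, 11.9% at VIIc.d, 11.3% at VIII and 14.8% at IX-XI. At XII 7% did, and at XIII-XIV 8.19%.

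**Figure D4:**
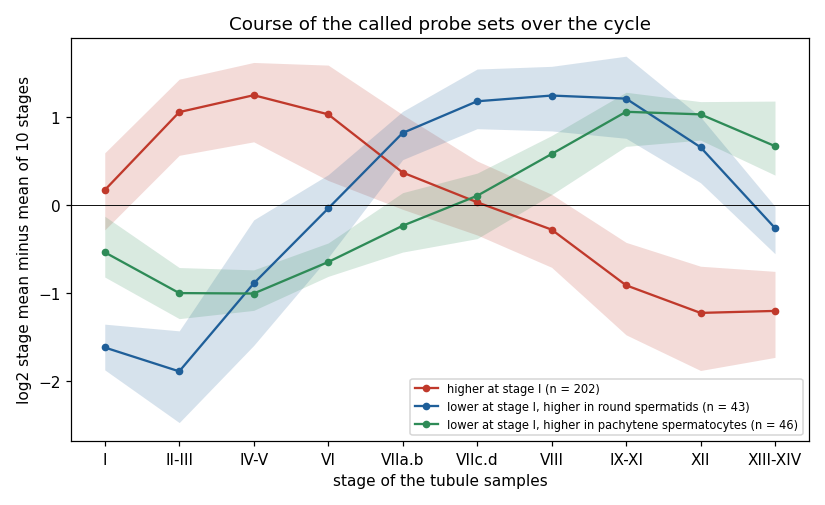
Median over the probe sets (line) and quartiles (band) of the log2 stage mean, less the mean of the 10 stages, in cycle order from I to XIII-XIV. The rising group climbs to 1.25 at IV-V, the falling group that is higher in round spermatids stays at -1.62 at I and -1.89 at II-III and reaches 1.25 at VIII, and the falling group that is higher in pachytene spermatocytes reaches 1.06 at IX-XI.

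Genes of the first falling kind were past their highest stage mean by stages XIII-XIV. Otub2, a deubiquitinase, had 232, 195, 240, 197 and 353 at stage I, against 1135, 1281, 1261, 769 and 723 at stages XIII-XIV, a 4.16-fold fall (adjusted p = 4.26e-12). It averaged 2864 at IX-XI and 836 in round spermatids. Fbxo39, an F-box protein gene, had 215, 141, 169, 337 and 318 at stage I, against 976, 924, 1052, 873 and 808 at stages XIII-XIV, a 4.07-fold fall (adjusted p = 2.96e-12). In both genes the groups were separated by a wide gap.

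Dnajb7, a co-chaperone gene, had 249, 180, 196, 513 and 518 at stage I, against 1020, 1288, 1146, 1097 and 1186 at stages XIII-XIV, a 3.79-fold fall (adjusted p = 1.19e-10). Cdyl, a reader of methylated histone H3, had 89.9, 92.2, 71.6, 174 and 180 at stage I, against 279, 371, 403, 487 and 457 at stages XIII-XIV, a 3.35-fold fall (adjusted p = 5.31e-11). In both, arrays 4 and 5 of stage I were the highest of that stage, though still below every array of stages XIII-XIV. Aif1, known elsewhere as a macrophage gene but here brightest in round spermatids at 1843, averaged 273 ± 158 at stage I and 791 ± 172 at stages XIII-XIV (3.19-fold lower, adjusted p = 4.28e-08). Its stage I arrays 4 and 5, at 457 and 431, lay above the others at 126 to 185, and in arrays 4 and 5 alone its log2 change was -0.87, under 2-fold (adjusted p = 0.00766). Chn2, a Rac-inactivating protein, averaged 277 ± 66.9 and 833 ± 123 in the same order (3.01-fold lower, adjusted p = 8.89e-11).

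The arrays were also compared over whole groups. The median over these 43 probe sets of log2 signal, less the mean of the 10 arrays, was -0.79, -1.20, -0.98, -0.28 and -0.23 in the 5 arrays of stage I, against 0.45, 0.78, 0.82, 0.67 and 0.69 in those of stages XIII-XIV. Among the stage I arrays, 4 and 5 thus lay nearest to stages XIII-XIV, while the separation of the stages follows from how the probe sets were chosen. For the 202 rising probe sets the stage I values were 0.68, 0.63, 0.62, 0.91 and 0.89, against -0.45, -0.90, -0.95, -0.53 and -0.61 at stages XIII-XIV, so there arrays 4 and 5 of stage I lay farthest from stages XIII-XIV. For the 46 probe sets higher in pachytene spermatocytes the stage I values were even, from -0.72 to -0.54, against 0.46 to 0.84 at stages XIII-XIV. With arrays 2 and 3 of both stages alone, 244 probe sets were called lower and 231 higher, and with arrays 4 and 5 alone 40 lower and 177 higher, each in the fit that kept all arrays of the other stages. What set arrays 4 and 5 apart was not tested.

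Of the second falling kind, 40 of 46 probe sets were brightest in pachytene spermatocytes, where 20.6% of all probe sets were. That these 46 were brighter there than in round spermatids follows from how they were grouped. B3galnt1, a glycolipid-synthesizing enzyme, had 89.0, 99.2, 92.8, 89.0 and 93.4 at stage I, against 229, 315, 309, 238 and 220 at stages XIII-XIV, a 2.70-fold fall (adjusted p = 1.71e-10). The stage I arrays were almost equal to each other. It averaged 34.4 in round spermatids and 733 in pachytene spermatocytes. Acsl3, which activates long-chain fatty acids, had 158, 160, 140, 94.5 and 139 at stage I, against 342, 535, 401, 323 and 327 at stages XIII-XIV, a 2.72-fold fall (adjusted p = 1.03e-09), and averaged 91.7 in round spermatids and 698 in pachytene spermatocytes. Gtse1, a microtubule-binding protein of G2 and mitosis, averaged 35.9 ± 17.6 at stage I and 101 ± 29.8 at stages XIII-XIV (2.70-fold lower, adjusted p = 0.00461), its highest stage. Fbxo9, Sel1l and Pigh, the last an enzyme subunit of GPI anchor synthesis, were of the same kind, lower by 2.63-fold, 2.73-fold and 3.27-fold. The Pigh call was lost in arrays 2 and 3 alone (adjusted p = 0.196) and in arrays 4 and 5 alone (adjusted p = 0.143).

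Among the 27 falling probe sets with no call in the isolated germ cells, 13 were brightest in Sertoli cells, where 21% of all probe sets were. Anxa5, which binds phospholipids in the presence of calcium, averaged 66.9 ± 40.0 at stage I and 183 ± 20.5 at stages XIII-XIV (3.09-fold lower, adjusted p = 0.000738), and 1556 in Sertoli cells against 6.72 in round spermatids. In arrays 4 and 5 alone its log2 change was -1.69 and did not pass (adjusted p = 0.0935). Ocln, a protein of the tight junctions between Sertoli cells, had 19.8, 8.76, 9.02, 8.03 and 24.0 at stage I, against 47.7, 43.2, 39.9, 43.8 and 48.3 at stages XIII-XIV (2.76-fold lower, adjusted p = 0.0135). Its stage I arrays were all below the table's median signal, and with arrays 2 and 3, and 4 and 5, averaged the adjusted p was 0.121, in arrays 2 and 3 alone 0.146 and in arrays 4 and 5 alone 0.507. A brighter Ocln probe set averaged 77.4 at stage I and 74.5 at stages XIII-XIV and did not pass limma's test (adjusted p = 0.946). Acsl4, an X-linked enzyme of fatty acid activation, averaged 55.7 ± 9.27 at stage I and 154 ± 46.1 at stages XIII-XIV (2.56-fold lower, adjusted p = 2.56e-06).

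The gene lists were next read member by member, with each gene taken from its brightest probe set over the tubule arrays. Of all 14217 genes measured, 136 (0.957%) were called higher and 72 (0.506%) lower, and at any fold 552 (3.88%) rose and 461 (3.24%) fell. The 28 lists held 604 names, of which 467 were measured.

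Most genes of the meiotic divisions did not pass the test between the stages. Of 95 measured genes of the cyclins, kinases, spindle, kinetochore, anaphase-promoting complex and cytokinesis, none was called higher and 1 was called lower, while 9 rose and 5 fell at any fold (14.7% passed, against 7.13% of all genes). Their median log2 change was 0.02, as over all genes. Cks2, the small subunit that Cdk1 needs to leave metaphase in mouse meiosis, had 473, 402, 499, 537 and 452 at stage I, against 1018, 1120, 1177, 899 and 901 at stages XIII-XIV, a 2.15-fold fall (adjusted p = 7.75e-12). Its groups were wide apart, and it averaged 142 in round spermatids and 1811 in pachytene spermatocytes. In arrays 4 and 5 alone its log2 change was -0.86.

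Several partners of the dividing cell rose by less than 2-fold. Ccnb1, cyclin B1, had 1404, 1153, 1082, 1108 and 935 at stage I, against 810, 541, 594, 715 and 656 at stages XIII-XIV (1.71-fold, adjusted p = 5.43e-06), and averaged 1061 in round spermatids and 352 in pachytene spermatocytes. Another, dimmer Ccnb1 probe set did not pass, at 98.5 ± 9.79 and 95.3 ± 19.2 in the same order. Kif15, a spindle kinesin, averaged 81.3 ± 11.8 at stage I and 42.9 ± 20.3 at stages XIII-XIV (1.99-fold, adjusted p = 0.00107). Ube2c, the ubiquitin-conjugating enzyme of the anaphase-promoting complex, averaged 918 ± 79.9 and 628 ± 68.6 (1.46-fold, adjusted p = 0.000308). Bub1, Kif23, Cdc25a, Ccna1, Cenpf and Cdc26 also rose, by 0.64 to 0.38 on the log2 scale.

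The kinases were mixed. Aurkc, the Aurora kinase of meiosis, had 529, 500, 509, 477 and 515 at stage I, against 890, 843, 811, 718 and 757 at stages XIII-XIV (1.58-fold lower, adjusted p = 0.000165), with no overlap. Aurka averaged 953 ± 155 and 919 ± 144 and Aurkb 379 ± 27.6 and 324 ± 19.2 in the same order, and neither passed (adjusted p = 0.952 and 0.606). Plk1 averaged 906 ± 65.3 at stage I and 675 ± 43.8 at stages XIII-XIV, without overlap, but did not pass (adjusted p = 0.327). Cdk1 averaged 549 ± 66.0 and 588 ± 42.1 and did not pass (adjusted p = 0.827). Tubg1, gamma-tubulin, and Wee1, the inhibitor of Cdk1, fell by 0.59 and 0.57 on the log2 scale, and Cenpn by 0.45.

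Acrosome genes moved in a single direction among those that passed. Of 12 measured, 4 were called higher and none lower (33.3% called, against 1.46% of all genes). At any fold 6 rose and none fell (50% passed, against 7.13%), with a median log2 change of 0.36. Besides Spam1, Acrv1, a protein of the acrosomal matrix, had 286, 163, 200, 336 and 320 at stage I, against 114, 39.7, 52.3, 84.5 and 79.4 at stages XIII-XIV (3.44-fold, adjusted p = 2.68e-09). Spaca6, needed for sperm and egg fusion in mice, averaged 125 ± 13.6 and 48.7 ± 14.5 in the same order (2.47-fold, adjusted p = 9.09e-09). Spaca3, a lysozyme-like protein, averaged 242 ± 93.2 and 102 ± 22.4 (2.22-fold, adjusted p = 1.32e-05), and its log2 change was 0.94 in arrays 2 and 3 alone and 0.99 without stage I replicate 4. Pick1 and Acrbp rose by 0.45 and 0.31 on the log2 scale, and Acr, the acrosomal protease, averaged 749 ± 108 and 600 ± 207 and did not pass (adjusted p = 0.383). The summed signal of the 12 genes was 6513 to 7273 at stage I, against 4936 to 5929 at stages XIII-XIV, so that the arrays did not overlap.

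Regulators of transcription in spermatids went both ways. Of 15 measured, Rfx1 and Foxj1 were called higher and Cdyl lower (20%, against 1.46% of all genes). The other 12 did not pass. Rfx1, a regulator of ciliary genes, had 209, 233, 317, 348 and 358 at stage I, against 76.8, 110, 96.5, 146 and 107 at stages XIII-XIV (2.65-fold, adjusted p = 4.01e-09). Foxj1, the regulator of motile cilia, had 364, 495, 437, 592 and 562 at stage I, against 198, 148, 122, 228 and 228 at stages XIII-XIV (2.65-fold, adjusted p = 3.09e-07). Neither gene's arrays overlapped between the stages, and both were brightest in round spermatids, at 807 and 953. The brightest probe set of Crem, the activator named above, averaged 509 ± 42.0 at stage I and 414 ± 42.3 at stages XIII-XIV and did not pass (adjusted p = 0.159).

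Flagellar genes also split. Of 31 measured genes of the axoneme and its transport, 5 rose and 3 fell at any fold (25.8% passed, against 7.13% of all genes). None was called higher and Tekt5 alone was called lower (3.23% called, against 1.46%). Tekt4 and Tekt2, tektins of the flagellum, each rose 1.53-fold, to 1382 ± 82.7 and 916 ± 104 at stage I, against 900 ± 72.8 and 598 ± 92.2 at stages XIII-XIV. Tekt5 fell, averaging 7.65 ± 7.03 and 24.2 ± 13.5 in the same order, both below the table's median (2.28-fold lower, adjusted p = 0.00423). That call was lost in 7 of 22 other settings, among them the fit of the 10 arrays alone (adjusted p = 0.266) and those without stage I replicate 3 or stages XIII-XIV replicate 4, at log2 changes of -0.99 and -0.97. In arrays 4 and 5 alone its adjusted p was 0.0734.

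Genes of the older, elongating spermatids fell where they passed, apart from Akap14. Of 24 measured, Tnp2 and Akap3 were called lower (8.33% called, against 1.46% of all genes). Capza3 and Tssk2 fell by 0.81 and 0.79 on the log2 scale and Akap14 rose by 0.90. The other 19 did not pass (20.8% passed, against 7.13% of all genes). Tnp2, a transition protein that replaces histones, had 1822, 1879, 2185, 5089 and 5415 at stage I, against 6908, 7838, 10166, 8418 and 6504 at stages XIII-XIV (2.71-fold lower, adjusted p = 0.000148). Arrays 4 and 5 of stage I were more than 2 times the others, and in arrays 4 and 5 of both stages alone the log2 change was -0.49 (adjusted p = 0.817). Akap3, of the fibrous sheath, averaged 1032 ± 285 and 2074 ± 175 in the same order (2.06-fold lower, adjusted p = 8.17e-07). It came to a log2 change of -0.94 without stage I replicate 2 and likewise without replicate 3, and -0.64 in arrays 4 and 5 alone.

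The protamine genes did not pass the test. Prm1 averaged 11810 ± 4602 at stage I and 11616 ± 2223 at stages XIII-XIV, Prm2 4739 ± 594 and 5781 ± 887, and Tnp1 7570 ± 1975 and 9285 ± 1942, and none passed (adjusted p = 0.982, 0.584 and 0.667). Hils1, a histone of spermatids, had 834, 336, 330, 1229 and 1301 at stage I, against 431, 342, 326, 1131 and 1393 at stages XIII-XIV. Arrays 4 and 5 were the highest in both stages, and the change did not pass (adjusted p = 0.889). Hmgb4, a testis HMG-box protein gene, averaged 2801 ± 300 and 5010 ± 484 (1.79-fold lower, adjusted p = 7.13e-06). It was the single one of 8 histone variant and related genes to pass (12.5%, against 7.13% of all genes).

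Genes of meiotic prophase were read next. Of 18 measured genes of the synaptonemal complex, cohesin and recombination, 3 rose by less than 2-fold, namely Smc3, Smc1b and Psmc3ip, and Mlh3 was called lower (22.2% passed, against 7.13% of all genes). Mlh3, a crossover protein gene, had 33.8, 15.9, 7.54, 15.5 and 7.76 at stage I, against 8.91, 53.3, 36.7, 49.0 and 52.1 at stages XIII-XIV (2.08-fold lower, adjusted p = 0.0150). The stages overlapped, and the call was lost in 10 of 22 other settings, with adjusted p of 0.325 in the fit of the 10 arrays alone. Leaving out stage I replicate 3 or 5, or stages XIII-XIV replicate 2, 4 or 5, gave log2 changes of -0.90, -0.91, -0.92, -0.95 and -0.93, each with an adjusted p above the threshold. Of 14 late spermatocyte genes, none was called and Pdha2, Mybl1 and Cstf2t fell, by 0.57, 0.54 and 0.49 on the log2 scale (21.4% passed). Tdrd1, a scaffold of piRNA granules, averaged 753 ± 97.8 at stage I and 1331 ± 142 at stages XIII-XIV (1.77-fold lower, adjusted p = 4.66e-10). Tdrd7 rose by 0.29 on the log2 scale, and these were the 2 of 11 piRNA genes that passed (18.2%). Of 38 replication genes, Mcm7 rose by 0.27 and Ccne2 and Gmnn fell by 0.81 and 0.57. That is 7.89% passed, near the 7.13% of all genes.

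Of the spermatogonial genes 4.55% passed and of the Sertoli cell genes 7.69%, near the 7.13% of all genes. Of 22 spermatogonial genes, Gfra1, the GDNF co-receptor, was the only one to pass, at 42.0 ± 19.0 at stage I and 99.9 ± 23.3 at stages XIII-XIV (2.36-fold lower, adjusted p = 0.000799). Its brightest probe set was at 158 in round spermatids and 58.2 in isolated spermatogonia, another probe set did not pass, and in arrays 4 and 5 alone its log2 change was -0.57 (adjusted p = 0.760). Kit averaged 22.7 ± 12.4 at stage I and 45.4 ± 10.5 at stages XIII-XIV and did not pass (adjusted p = 0.190). Of 26 Sertoli cell genes, Cst9l and Serpina5 rose, to 866 ± 57.1 and 470 ± 44.1 at stage I, against 561 ± 44.9 and 363 ± 24.7 at stages XIII-XIV. Wt1, Gata4, Shbg and Ctsl did not pass. In the lists of signalling, retinoid, cholesterol and metabolic genes, Acvr2a and Sqle rose by 0.68 and 0.69 on the log2 scale, Rdh10, which makes retinal, fell by 0.99, and Pdha2 and Pgk1 fell. None of 22 junction genes passed by its brightest probe set, Ocln above being called by another.

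Markers of cells other than germ and Sertoli cells did not pass in either direction. They were 11 Leydig, 7 peritubular myoid, 8 macrophage and blood and 7 endothelial genes, and none of 14 early-response and stress genes passed either. Over all genes 7.13% passed. The summed signal of the Leydig genes was 440 to 562 at stage I and 445 to 508 at stages XIII-XIV, and that of the macrophage and blood genes 220 to 387 and 222 to 291. By mean signal, 5 of the 11 Leydig genes lay above the table's median of 43.7 at stage I and 6 at stages XIII-XIV, and for the 7 endothelial genes 0 and 2 did. The summed signals of the spermatogonial genes were 1071 to 1250 at stage I and 1169 to 1325 at stages XIII-XIV, and those of the Sertoli genes 7907 to 8422 and 7226 to 7913.

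**Figure D5:**
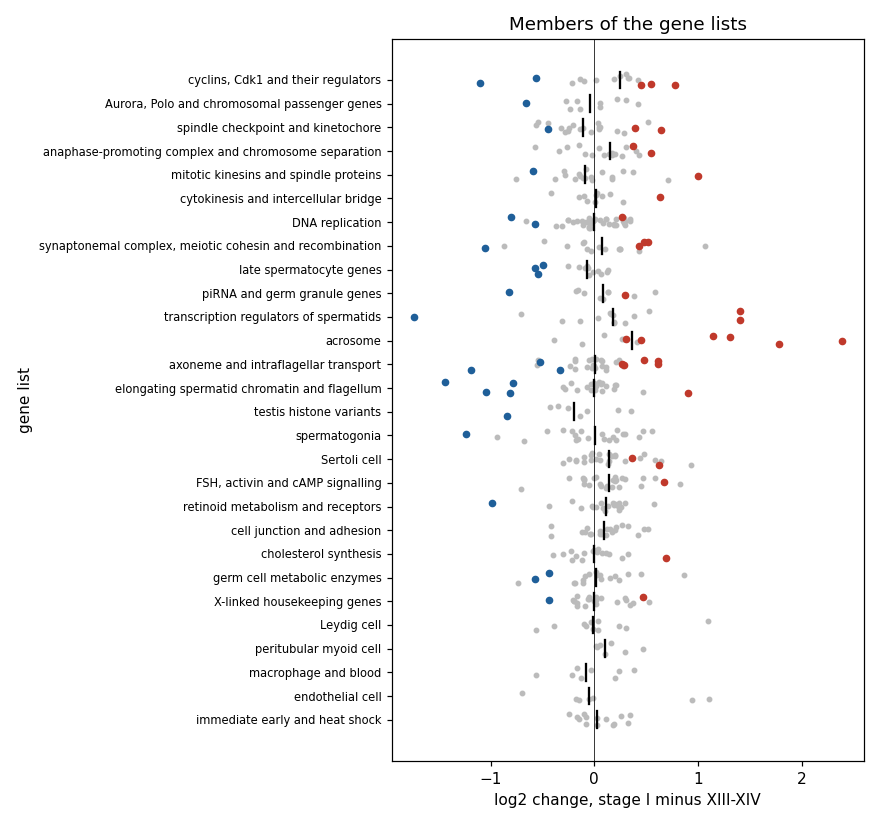
Log2 change, stage I minus stages XIII-XIV, of each measured gene in the 28 lists, with red points for genes that rose, blue for genes that fell, grey for those that did not pass limma's test and a black bar at the list's median. Of the acrosome genes, 4 lie above 1, and Cdyl at -1.74 is the lowest point of all lists.

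Genes of chromosome X, which is silenced in pachytene spermatocytes, were read as a group. Of 445 measured, 10 were called higher (2.25%) and 3 lower (0.674%), against 125 (0.911%) and 69 (0.503%) of 13718 genes on other named chromosomes. The median log2 change was 0.10 on X and 0.02 elsewhere, and the difference between the chromosomes was not tested. Of the 10 higher genes, 9 were also called higher in round spermatids than in pachytene spermatocytes, as were 2 of the 3 lower genes. Of all 202 rising and 116 falling probe sets, 80.7% and 37.1% were. The share among all genes of X was not computed.

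Ube2a, a ubiquitin-conjugating enzyme, had 204, 270, 267, 327 and 264 at stage I, against 80.2, 74.2, 64.0, 101 and 116 at stages XIII-XIV (2.97-fold, adjusted p = 1.91e-11), and averaged 793 in round spermatids and 52.8 in pachytene spermatocytes. Magt1, of protein glycosylation, averaged 104 ± 14.1 and 48.8 ± 22.9 in stages I and XIII-XIV (2.13-fold, adjusted p = 3.24e-06). Rbm10, Nup62cl, Bcor, Uxt, Rhoxl and Fndc3c1 rose 3.09-fold to 2.14-fold, of which Fndc3c1 overlapped between the stages, and Samt3 rose 5.97-fold. Bcor, Uxt, Rhoxl and Fndc3c1 were dim, with means below the table's median of 43.7 at both stages. Slc25a14, a mitochondrial carrier gene, rose 2.83-fold (adjusted p = 0.0106), and was at 12.2 in round spermatids and 4.68 in pachytene spermatocytes. Smpx, known from muscle, had 226, 177, 156, 366 and 274 at stage I, against 597, 687, 707, 703 and 594 at stages XIII-XIV (2.82-fold lower, adjusted p = 6.75e-11), and Tmsb15b2, an actin-binding thymosin, averaged 917 ± 248 and 1902 ± 297 (2.12-fold lower, adjusted p = 5.9e-07). The X-linked housekeeping list held 23 genes, of which Usp9x rose by 0.47 and Pgk1 fell by 0.43 on the log2 scale. Of that list 8.7% passed, against 7.13% of all genes.

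Probe sets of a gene often differed: of 99 called genes with several probe sets, 4 had every one called. Otub2, Aif1 and Chn2 passed with 1 of 2, 1 of 2 and 1 of 3 probe sets, and Cdyl with 2 of 3. The dimmer of the 2 Cdyl probe sets lost its call without stage I replicate 5 (adjusted p = 0.0524), in arrays 2 and 3 alone (0.258) and in arrays 4 and 5 alone (0.42). Of the genes with a called probe set, Fam220a and Tes had probe sets that passed in opposite directions. The falling genes not yet described were Ssbp3, Slc17a2, Zc2hc1b and Prss35, lower by 3.58-fold, 3.44-fold, 3.19-fold and 3.46-fold. Prss35, a protease-like protein gene, was at 196 in Sertoli cells and 353 in spermatogonia with early spermatocytes, and at 14.3 in round spermatids. In arrays 4 and 5 alone the log2 change of Slc17a2, of a phosphate transporter family, was -0.40 (adjusted p = 0.592), and its call was also lost in the fit of the 10 arrays alone (adjusted p = 0.0598). In arrays 4 and 5 alone Prss35 came to -1.08 (adjusted p = 0.708) and Zc2hc1b to -1.20 (adjusted p = 0.377), and neither passed.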

How the data were processed

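Gene expression was measured on Affymetrix rat arrays in 10 tubule samples, 5 of stage I and 5 of stages XIII-XIV. The deposited table holds MAS5 signals, linear array intensities computed by the authors with MAS5 per the submitters' processing notes, which have a common trimmed mean of 100 on each array. Genes were named from the platform annotation and updated through RefSeq (GRCr8): 20826 probe sets had 1 gene, 436 several and 9780 none. Values were analysed as log2(signal + 5.11), the constant being the 10th percentile of the table, with limma 3.58.1 in R 4.3.3 (lmFit, eBayes with trend) over the 49 tubule arrays in 10 stage groups, and p-values were adjusted over 31042 probe sets. The 15 isolated cell arrays were fitted the same way. A probe set was called at an adjusted p under 0.05 and at least 2-fold. Named genes were the 12 rising and 12 falling with the largest change among called probe sets with 1 gene, no overlap between the stages and a higher group at or above the table's median, together with called members of the lists and defining markers. The examples of each class, of chromosome X and of the promoters were chosen after their values were seen. The members and lists were chosen with earlier results of these data known. The fit was tested on simulated data with independent noise in each array, so that test does not cover arrays that deviate together. Array scan dates were not used here, and the number of arrays limits the precision.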

Additional observations from a re-analysis of the deposited data

Results flagged for a closer look

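In 80 groups of 5 arrays, covering 37 probe sets and the array quality measures, 4 held an array whose gap to its nearest neighbour was above Dixon's critical share of the group's range. For normally distributed values chance alone gives about 1 in 20. Most of these were linear array signals of probe sets chosen by their calls, so that rate need not apply. Numbl was at 48.2 in stages XIII-XIV replicate 5, with the other arrays between 4.78 and 10.6. Samt3 was at 33.3 in stages XIII-XIV replicate 1, with the others between 3.99 and 8.39. Otub2 was at 353 in stage I replicate 5, with the others between 195 and 240. A dimmer Cdyl probe set was at 25.2 in stages XIII-XIV replicate 2, with the others between 42.6 and 49.4.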

How the results depend on the processing

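In 22 other settings, 37 probe sets of the largest changes and of list genes were followed, and the other named genes were not. Of the 37, 16 lost their call in at least 1 setting, and none changed direction. The call was lost for 13 in arrays 4 and 5 alone and for 5 in arrays 2 and 3 alone. With 4 times the constant, 169 probe sets were called, 109 higher and 60 lower, with 8 genes of chromosome X; the larger constant shrinks changes of dim probe sets. Leaving out 1 array at a time gave 273 to 352 called, 175 to 216 higher and 91 to 147 lower, 10 to 16 list members against 13, and 12 to 15 genes of chromosome X against 13. The settings that grouped arrays were chosen after seeing the data: averaging arrays 2 and 3, and 4 and 5, gave 207, 134 higher and 73 lower, arrays 2 and 3 alone gave 244 lower and 21 list members, and arrays 4 and 5 alone gave 40 lower; the cause was not tested. Deviations of same-numbered arrays of the stages correlated at -0.13 to 0.21, and 1 of 5 was over 0.1. For 3 of 5 the same number gave a higher correlation than any other number. Whether the replicate numbers pair the stages was not tested. With the replicate number as a block 346 were called, 216 higher and 130 lower. The 10 arrays alone gave 232, and with the block 233. Fewer arrays then set the spread. Dim probe sets limit what can be seen.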
